A study of Mus musculus with 10 samples.

Results

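Broad H3K4me3 domains at gene starts were taken from the H3K4me3 peak list of mouse neutrophils as every peak at least 6000 bp wide whose centre lay within 5000 bp of the nearest annotated gene start. This gave 1142 domains, 2.13% of the 53500 H3K4me3 peaks, named for 1135 genes. The remaining 15171 peaks within the same distance of a start were narrower and served for comparison, together with the 1142 of them that carried the most signal. The domains were chosen by these measured widths and distances, so both are given as a description only. The peaks form a consensus list for the libraries of both genotypes together, so no width belongs to either genotype alone. The domains just inside the width limit were those of Glipr1 (6005 bp), Usf2 (6007 bp) and Ubash3b (6009 bp), and the peaks just outside it were those of Hoxd11 (5996 bp), Gmip (5995 bp) and Atp8b2 (5994 bp).

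Trimethylation of lysine 4 of histone H3 (H3K4me3) is laid down at gene starts by SET1 and MLL complexes, which are drawn to unmethylated CpG dinucleotides and to transcribing polymerase. At most genes it forms a narrow peak over the first nucleosomes. In many cell types a small set of genes carries it far into the gene body, and such broad domains are known for genes of cell identity. Broad H3K4me3 is also known over CpG-rich starts of silent developmental regulators, where it can lie beside the Polycomb mark H3K27me3, which was not measured here. The other marks of the series were H3K27ac, found at active promoters and enhancers, H3K4me1, found at enhancers and promoter flanks, and H3K36me3, found over transcribed gene bodies.

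Chromatin immunoprecipitation followed by sequencing was done on sorted neutrophils used ex vivo without culture, from wild-type C57BL6 mice (WT) and from mice on the same background deficient in Morrbid (KO), a long non-coding RNA encoded near Bcl2l11. There was 1 library per mark and genotype, 8 libraries in all, and the labels do not give age, sex, the number of animals pooled or how the deficiency was made. With 1 library per group no difference has a replicate check and no test was possible. Values are normalized reads as the authors deposited them, and whole reads recovered from them gave exact (Clopper-Pearson) 95% intervals that cover counting error only, since reads copied by PCR are not independent molecules. The WT H3K4me3 library held 2669490 reads in peaks and the KO library 10277795, a ratio of 3.85, and the ratio was 4.56 for H3K27ac, 5.87 for H3K4me1 and 1.13 for H3K36me3. Small WT counts therefore limit each comparison. At the start of Gm14005, the name of Morrbid in the files, the H3K4me3 peak at chr2:128251398-128255852 (mm9), 4455 bp wide and so not a broad domain, held 330 reads in the WT and 1 read, the lowest value in the column, in the KO.

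To show what kind of sequence lies under such domains, the promoters of the 4 widest domains with an overlapping H3K27ac peak and of the 4 widest without one are printed, among protein-coding genes with a single promoter in the RefSeq table for GRCm38.p6. Each runs 5′ to 3′ on the strand of the gene, from 250 bases before to 50 bases after the start, and capitals mark the CG dinucleotides, which read the same on both strands. The first 4 have an H3K27ac peak and the last 4 have none.
Fpr1: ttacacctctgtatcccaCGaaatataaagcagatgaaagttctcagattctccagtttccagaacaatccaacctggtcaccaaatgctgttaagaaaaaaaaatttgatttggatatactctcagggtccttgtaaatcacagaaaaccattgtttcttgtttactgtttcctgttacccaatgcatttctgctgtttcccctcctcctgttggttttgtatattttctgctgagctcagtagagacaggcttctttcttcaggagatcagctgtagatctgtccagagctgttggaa
Ifitm3: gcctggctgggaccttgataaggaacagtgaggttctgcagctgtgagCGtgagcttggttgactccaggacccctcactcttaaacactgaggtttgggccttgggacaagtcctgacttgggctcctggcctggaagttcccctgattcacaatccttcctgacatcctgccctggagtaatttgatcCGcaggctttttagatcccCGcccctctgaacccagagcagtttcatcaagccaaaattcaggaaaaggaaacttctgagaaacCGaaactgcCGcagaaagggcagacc
Nbeal2: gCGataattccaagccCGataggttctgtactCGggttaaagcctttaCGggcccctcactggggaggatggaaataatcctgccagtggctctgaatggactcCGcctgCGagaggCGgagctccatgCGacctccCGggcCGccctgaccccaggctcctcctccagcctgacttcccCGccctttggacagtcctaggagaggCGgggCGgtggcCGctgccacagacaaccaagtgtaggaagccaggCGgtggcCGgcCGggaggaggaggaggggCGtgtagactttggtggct
Ncf1: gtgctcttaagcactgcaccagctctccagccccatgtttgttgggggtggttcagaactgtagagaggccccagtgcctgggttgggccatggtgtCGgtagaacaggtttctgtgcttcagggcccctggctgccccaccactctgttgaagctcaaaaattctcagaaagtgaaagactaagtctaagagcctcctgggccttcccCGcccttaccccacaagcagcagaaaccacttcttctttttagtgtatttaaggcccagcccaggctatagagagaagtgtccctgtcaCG
Hoxa7: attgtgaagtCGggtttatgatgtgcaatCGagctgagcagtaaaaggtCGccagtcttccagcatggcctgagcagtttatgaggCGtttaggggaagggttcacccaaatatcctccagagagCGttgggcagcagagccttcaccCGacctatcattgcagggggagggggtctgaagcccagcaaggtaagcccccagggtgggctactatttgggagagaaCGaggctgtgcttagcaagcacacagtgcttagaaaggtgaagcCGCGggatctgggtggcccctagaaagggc
Uncx: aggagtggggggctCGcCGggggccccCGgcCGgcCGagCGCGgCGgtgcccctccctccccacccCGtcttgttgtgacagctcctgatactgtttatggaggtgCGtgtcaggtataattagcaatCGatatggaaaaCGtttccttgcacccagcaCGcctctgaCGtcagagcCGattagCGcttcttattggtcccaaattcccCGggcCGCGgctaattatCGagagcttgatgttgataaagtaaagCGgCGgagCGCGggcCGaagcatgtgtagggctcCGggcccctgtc
Hoxd9: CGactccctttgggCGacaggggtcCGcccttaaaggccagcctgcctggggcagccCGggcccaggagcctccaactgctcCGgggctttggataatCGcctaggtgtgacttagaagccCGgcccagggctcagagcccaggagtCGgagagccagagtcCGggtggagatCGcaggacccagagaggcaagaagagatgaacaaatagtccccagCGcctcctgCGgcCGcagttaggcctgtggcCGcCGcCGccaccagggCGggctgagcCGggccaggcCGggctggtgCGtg
Ebf3: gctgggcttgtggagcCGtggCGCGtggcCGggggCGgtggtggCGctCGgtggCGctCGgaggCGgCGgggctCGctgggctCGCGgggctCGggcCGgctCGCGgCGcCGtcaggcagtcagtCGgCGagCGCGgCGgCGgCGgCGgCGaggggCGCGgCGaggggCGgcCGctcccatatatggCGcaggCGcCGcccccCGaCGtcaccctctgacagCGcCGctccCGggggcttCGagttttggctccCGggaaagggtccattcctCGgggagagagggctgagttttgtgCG
In GRCm38.p6 the first 4 lie at chr17:17883890-17884189 (minus strand), chr7:141010695-141010994 (minus), chr9:110654112-110654411 (minus) and chr5:134229576-134229875 (minus). The last 4 lie at chr6:52218524-52218823 (minus), chr5:139543648-139543947 (plus), chr2:74697513-74697812 (plus) and chr7:137314396-137314695 (minus). The number of CG dinucleotides was 1 at Fpr1, 5 at Ifitm3, 18 at Nbeal2 and 3 at Ncf1. It was 9 at Hoxa7, 26 at Uncx, 20 at Hoxd9 and 46 at Ebf3. Over all 32851 promoters of the table the median was 7, and 43.5% held 10 or more. A wide domain therefore lay both over promoters with almost no CG, such as that of Fpr1, and over promoters dense in it, such as that of Ebf3. Promoters could be matched for 874 of the 1142 domains (76.5%) and for 74 of the 109 domains without H3K27ac (67.9%). Both shares are under the 80% set as the minimum, so a comparison of CG content between groups of domains is void.

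The domains had a median width of 8117 bp, with quartiles at 6815 and 10407.5 bp and a maximum of 39074 bp. Of the 1142, 332 were at least 10000 bp wide, 75 at least 15000 bp and 5 at least 30000 bp. The widest 12 were named for Fpr1, Spi1, Arid3a, Trem3, 4933431G14Rik, Ifitm3, Mtus1, Nbeal2, Hoxa7, 5830432E09Rik, Ncf1 and Degs1. Fpr1, the receptor for formylated bacterial peptides, lay at chr17:17999523-18038596 (mm9) with 3170 normalized reads in the WT and 3734 in the KO. Spi1, the gene of the myeloid regulator PU.1, lay at chr2:90918020-90956026, 38007 bp wide, with 3234 and 3868. Both domains were thus close in width and in signal, and both held slightly more reads in the KO before centring. Trem3, a neighbour of the triggering receptor Trem1, had 1822 and 2126 over 31793 bp. Ifitm3, an antiviral membrane protein, had 2365 and 3113 over 29511 bp, and Ncf1, the cytosolic NADPH oxidase subunit p47phox, had 2504 and 3291 over 27052 bp. Hoxa7, a homeobox gene of body patterning, stood apart in this set, as its domain of 27609 bp had no overlapping H3K27ac peak and 1144 normalized reads in the WT against 1742 in the KO.

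Most domains extended into the gene. The annotated start lay inside 1138 of the 1142 domains (99.6%), and 902 (79.0%) were centred downstream of it. Among the strongest narrower peaks the shares were 99.6% and 82.1%, so neither set the domains apart from them. The median reach was 2457 bp upstream and 5783.5 bp downstream, against 1342 and 2463.75 bp for the strongest narrower peaks. Upstream and downstream reach together make up the width of a peak, so the longer reach follows from the width limit. Centres fell in an intron for 742 domains (65.0%), in the promoter for 138, in an exon for 87 and between genes for 82. Of the domains, 1050 belonged to protein-coding genes and 88 to non-coding RNA genes.

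Signal per kb in the broad domains was close to that of narrower start peaks. Averaged over WT and KO, the median was 106 normalized reads per kb in the domains and 100.8 in all narrower start peaks. It was 200.6 in the strongest narrower peaks, which were picked for their signal. Across the 1142 domains, width and signal per kb had a Pearson correlation of -0.03 and a Spearman correlation of -0.08, given as a description of domains that share the same libraries. The highest signal per kb was at Rn45s (1284), the ribosomal RNA precursor, whose copies are repeated in the genome and whose reads cannot be assigned to 1 copy. The next were Rnf167, a ubiquitin ligase (304), A730008H23Rik (299.7), Tnrc18 (285), the granulocyte transcription factor Cebpd (284), cytoplasmic actin Actb (274), Anp32a (266) and the thioredoxin-binding protein Txnip (266).

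**Figure D1:**
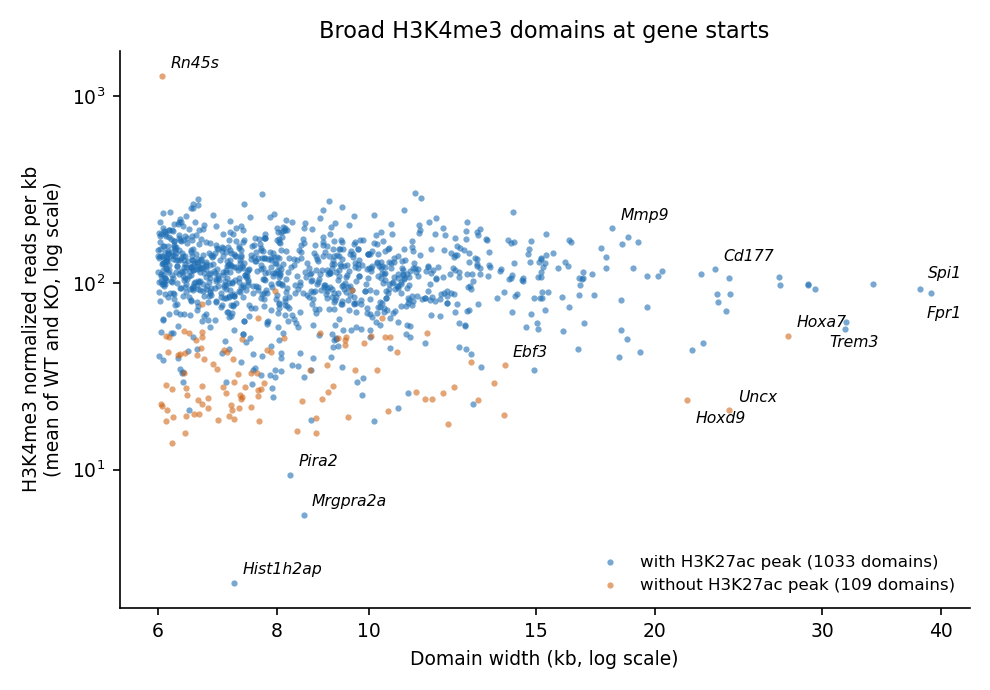
Each point is 1 of the 1142 domains. The horizontal axis gives its width in kb and the vertical axis its H3K4me3 signal as the mean of WT and KO in normalized reads per kb, both on a log scale. Blue marks the 1033 domains with an overlapping H3K27ac peak and orange the 109 without one, most of which lie low, with a median of 28.3 reads per kb against 111.

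Some domains covered the starts of several genes. Counting only starts whose position could be recovered from at least 2 peaks, and hence as a lower bound, 198 domains (17.3%) held 2 or more starts. The share was 18.8% for the strongest narrower peaks and 6.15% for all narrower ones, so it did not set the domains apart from strong narrow peaks. At least 3 starts were found in 14 domains and in 1 of the strongest narrower peaks. The domain with the most, 4, held Arid3a, Kiss1r, Med16 and R3hdm4. The domain of Lcn2, the iron-sequestering granule protein lipocalin 2, also held Ptges2 and 1110008P14Rik. That of Hcst, an adaptor of activating receptors, also held Tyrobp, a second such adaptor, and Nfkbid. That of Coro1a, the actin regulator coronin 1A, also held Bola2 and Slx1b, and that of Fpr1 also held Fpr2, a second formyl peptide receptor.

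Nearly every domain overlapped peaks of the other marks by at least 1 bp. An H3K4me1 peak overlapped 1126 domains (98.6%), an H3K36me3 peak 1050 (91.9%) and an H3K27ac peak 1033 (90.5%), and 983 (86.1%) had all 4 marks. Among the strongest narrower peaks the shares were 99.9%, 57.3% and 99.8%, and among all narrower peaks 89.4%, 28.6% and 78.5%. By this count of any overlap, H3K36me3 was the mark in which the domains differed most from strong narrow peaks. The domains were wider by choice, with a median of 8117 bp against 4054.5 bp, and a longer stretch can meet more peaks. The count is therefore not a comparison at equal length. H3K27ac was less frequent in the domains than in strong narrow peaks. The median share of a domain covered was 85.2% for H3K27ac, 80.6% for H3K4me1 and 50% for H3K36me3, while in the strongest narrower peaks H3K36me3 covered 6.97%. The overlap was also read at fixed distances from the start. In the bin of 250 bp centred 4875 bp downstream, H3K36me3 covered 78.1% of 1012 starts of domains with H3K27ac and 75.8% of 1118 starts of the strongest narrower peaks. At this distance the groups were close, as they were 9875 bp downstream with 74.0% and 71.2%. Nearer to the start they were not, with 69.9% against 45.1% in the bin centred 2125 bp downstream and 12.5% against 0.805% at 125 bp.

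Downstream of the start, H3K4me3, H3K27ac and H3K4me1 reached further in the broad domains than in the strongest narrower peaks. In the bin 0 to 250 bp downstream of it, H3K4me3 covered 99.7% of the starts with H3K27ac, H3K27ac 93.2%, H3K4me1 40.5% and H3K36me3 12.5%. In the bin centred 4875 bp downstream, H3K4me3 still covered 71.6%, H3K27ac 58.1% and H3K4me1 84.3%. At the starts of the strongest narrower peaks the same bin had H3K4me3 at 7.16%, H3K27ac at 25.4% and H3K4me1 at 57.9%. The H3K4me3 difference follows from the width limit that separates the groups. For H3K27ac, the broad group was limited beforehand to domains with such a peak. At that distance H3K4me1 and H3K36me3 covered a majority of the starts in both groups. These shares describe peaks of separate libraries, and whether the marks sit on the same nucleosomes cannot be told from them. At 9875 bp downstream H3K4me3 covered 27.3% and H3K36me3 74.0%.

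**Figure D2:**
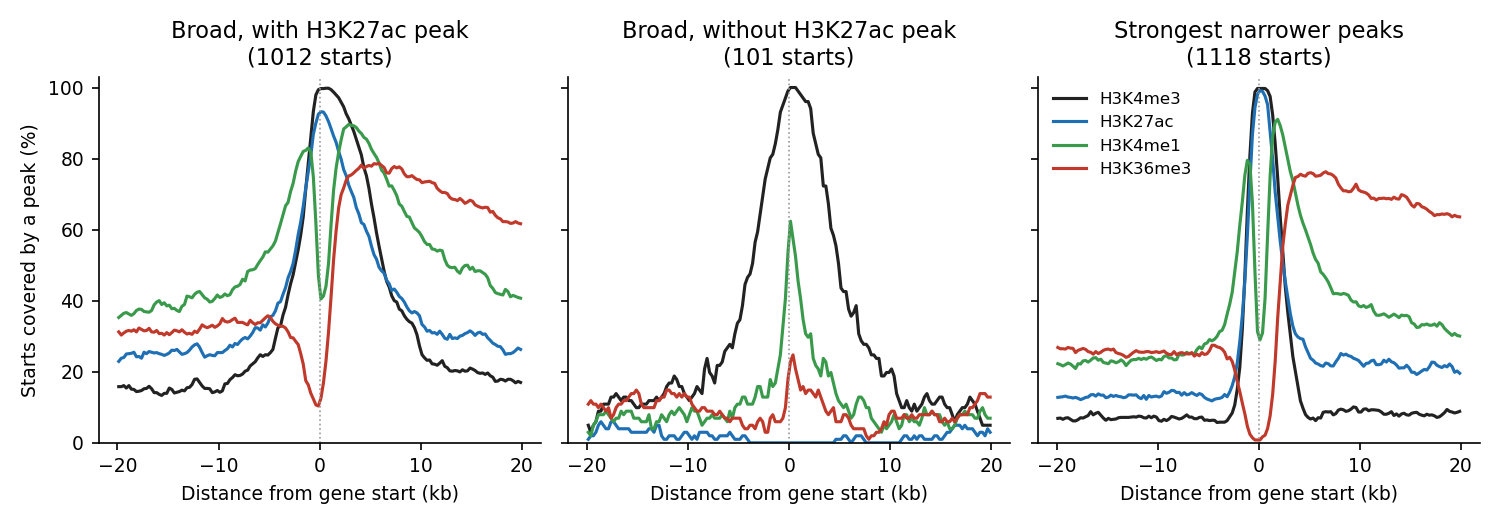
Percent of gene starts covered by a peak of each mark in bins of 250 bp, from 20 kb upstream (negative) to 20 kb downstream. The panels show broad domains with H3K27ac, broad domains without it and the strongest narrower peaks. The flanks of H3K4me3 and H3K27ac reach further in the first panel than in the third, which for H3K4me3 follows from the width limit. The second panel has H3K4me1 centred on the start, at 62.4% in the bin 125 bp downstream.

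The 109 domains without an H3K27ac peak formed a separate kind, a split made after the values had been seen and so given without a test. Their median H3K4me3 signal was 28.3 normalized reads per kb, with 25.7 in the WT and 32.4 in the KO, against 111 in the other 1033. They were more symmetric, with a median reach of 3390.5 bp upstream and 4574.5 bp downstream of the start. H3K4me1 peaks overlapped 93 of them and covered a median of 22.2% of the domain, and H3K36me3 peaks overlapped 67 and covered 6.34%. H3K4me1 covered 62.4% of their starts in the bin 125 bp downstream, where the other domains had 40.5%. At 4875 bp downstream H3K36me3 covered 5.94% of their starts, against 78.1%. In the bin 125 bp downstream the order was reversed, with H3K36me3 over 22.8% of their starts and 12.5% of the others.

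Genes of developmental transcription factors made up much of this set. Descriptions naming a homeobox, forkhead, T-box, SOX, POU or related family were found for 41 of the 109 domains (37.6%) and for 24 of the 1033 with H3K27ac (2.32%). They were found for 1.62% of the 15171 narrower peaks, and for 83 (3.09%) of the 2682 narrower peaks with signal per kb between 22.6 and 44.0, the middle range of the 109. H3K27ac was present at 43.2% of those 2682. Of 9 domains named for Hox genes, 8 lacked H3K27ac, namely Hoxa7, Hoxd9, Hoxb6, Hoxb8, Hoxd13, Hoxc10, Hoxc12 and Hoxc5, and only that of Hoxa11 had it. The domain of Uncx, a homeobox gene of the vertebral column, was 23972 bp wide with 426 normalized reads in the WT and 577 in the KO. That of Ebf3, a relative of the B cell regulator Ebf1, was 13901 bp wide with 487 and 520, and that of the neural gene Olig2 was 11656 bp wide with 242 and 312. Their signal per kb was 20.9 at Uncx, 36.2 at Ebf3 and 52.3 at Hoxa7, beside a median of 111 over the domains with H3K27ac. Low signal per kb was not particular to them, as some receptor genes of neutrophils with H3K27ac had 41.7 (Fcgr4), 50.9 (Clec4d) and 61.4 (Clec5a). Not all domains of these families lacked acetylation, as the 24 above had H3K27ac peaks. Among those 24 were Hlx, a homeobox gene of blood cells (12596 bp), and Meis1 (9343 bp). Lhx1 (18417 bp), Irx5 (12615 bp) and Shox2 (8656 bp) were also among them.

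Genes known from neutrophils often had a broad domain. Of 14126 genes with an H3K4me3 peak at the start, 8.03% had a domain, and 20 gene lists were read against that share. The lists were drawn up with earlier results of these data known, so their counts are a description. A listed gene was counted as measured only where an H3K4me3 peak at the start was matched to it. Most lists of neutrophil and myeloid genes lay above it and the ribosomal protein list below it.

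Among 36 measured neutrophil and myeloid transcription factors, 20 had a domain. After Spi1 the widest were Nfe2 (14236 bp), Bcl6 (14154 bp) and Cebpe (13776 bp), the last a regulator of granule genes in late granulopoiesis. Cebpe had 1417 normalized reads in the WT and 1849 in the KO. Those without a domain included Cebpa, the regulator of early granulocyte commitment (5164 bp), and Irf8, a regulator of monocytes (2355 bp). Of 11 measured AP-1 factors, which drive immediate responses to stimuli, 5 had one, led by Fosl2 (12646 bp).

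Broad domains were found at most genes of late granulocyte maturation and at few of the early granule genes. Of 10 measured late genes, most of them for secondary and tertiary granule proteins, 8 had a domain. These were Cd177, a neutrophil surface protein (23167 bp), the chitinase-like Chil3 (19610 bp), Lcn2 (18735 bp), the gelatinase Mmp9 (18055 bp), the collagenase Mmp8 (15176 bp), Ngp, Padi4 and Ltb4r1. Padi4, an enzyme that modifies histones, and Ltb4r1, a leukotriene receptor also counted below among receptors, are not granule proteins, and without them 6 of 8 had one. Camp, encoding cathelicidin (5201 bp), and the integrin Itgam (2580 bp) had narrower peaks. Of 7 early genes, most of them for primary granule proteins, Serpinb1a (10723 bp), a cytosolic inhibitor of granule proteases, and the granule protease Prtn3 (7373 bp) had one, while myeloperoxidase Mpo had 3750 bp, neutrophil elastase Elane 2236 bp and cathepsin G Ctsg 2495 bp. The difference between early and late genes rests on 10 and 7 genes and was not tested.

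Receptors, migration genes and the oxidase were also frequent. Of 30 measured chemoattractant, cytokine and pattern receptors 18 had a domain, among them Fpr1, the G-CSF receptor Csf3r (17173 bp), Clec5a (16847 bp) and the chemokine receptor Cxcr2 (15366 bp). Cxcr2 had 2010 normalized reads in the WT and 2322 in the KO. Narrower peaks were found at Tlr4 (4495 bp) and Cd14 (1944 bp), which sense lipopolysaccharide. Of 17 adhesion and migration genes 10 had one, led by Arhgdib, a regulator of small GTPases (23932 bp), Rac2 (15093 bp) and Dock8 (13383 bp). Of 6 listed NADPH oxidase genes only 3 were measured, Ncf1, Rac2 and Cyba (10889 bp), and all 3 had one.

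Cytokine and chemokine genes, which neutrophils transcribe on activation, were near the share over all genes, with 1 of 18, Tnfsf14 (10666 bp). Il6 (372 bp), Ccl4 (488 bp) and Cxcl2 (1371 bp) had narrow peaks, and Tnf had 4121 bp. Of 25 feedback regulators of signalling, by contrast, 13 had a domain. The widest were Zfp36, a factor that destabilises cytokine messages (15637 bp), Dusp6, a phosphatase of ERK (11293 bp), and Nfkbiz, a nuclear cofactor of NF-kB (11189 bp). None of the 57 measured genes of cytosolic ribosomal proteins had one, with a median of 2240 bp for the widest peak at their starts and 2134 bp over all genes. Of 16 glycolysis genes 7 had one, led by pyruvate kinase Pkm (16213 bp) and hexokinase Hk3 (15209 bp). Of 19 genes of the BCL2 family and related death inhibitors 6 had one, Cflar (12954 bp), Bid, Birc3, Bcl2l11, Bmf and Bbc3. Of 15 writers and erasers of H3K4 methylation 2 had one, Setd1b (19225 bp), which encodes a SET1 methyltransferase, and its partner Wdr5 (6354 bp).

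Markers of neutrophils and of other cells were counted in the same way, and these counts cannot check the purity of the sort. Of 14 listed neutrophil markers 10 were measured and 8 had a domain, all with H3K27ac. Ly6g, S100a8, S100a9 and Ltf were not measured, as no H3K4me3 peak at a start was matched to them. No domain was named for any measured marker of B cells (4 of 7 listed), T cells (4 of 10), erythroid cells (4 of 5) or non-blood cells (3 of 4). Only 8.03% of all measured genes had a domain, so sets this small could lack one whatever cells were present. Among 3 measured markers of eosinophils and mast cells, of 9 listed, 1 had a domain. This was Gata2 (12820 bp, 459 normalized reads in the WT and 507 in the KO), which lacked an H3K27ac peak. A further 8 list genes had their start inside a domain named for a neighbour, namely Fpr2, Trem1, Il1r2, Eno1, Tpi1, Kmt2e, Mafg and the T cell regulator Gata3.

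**Figure D3:**
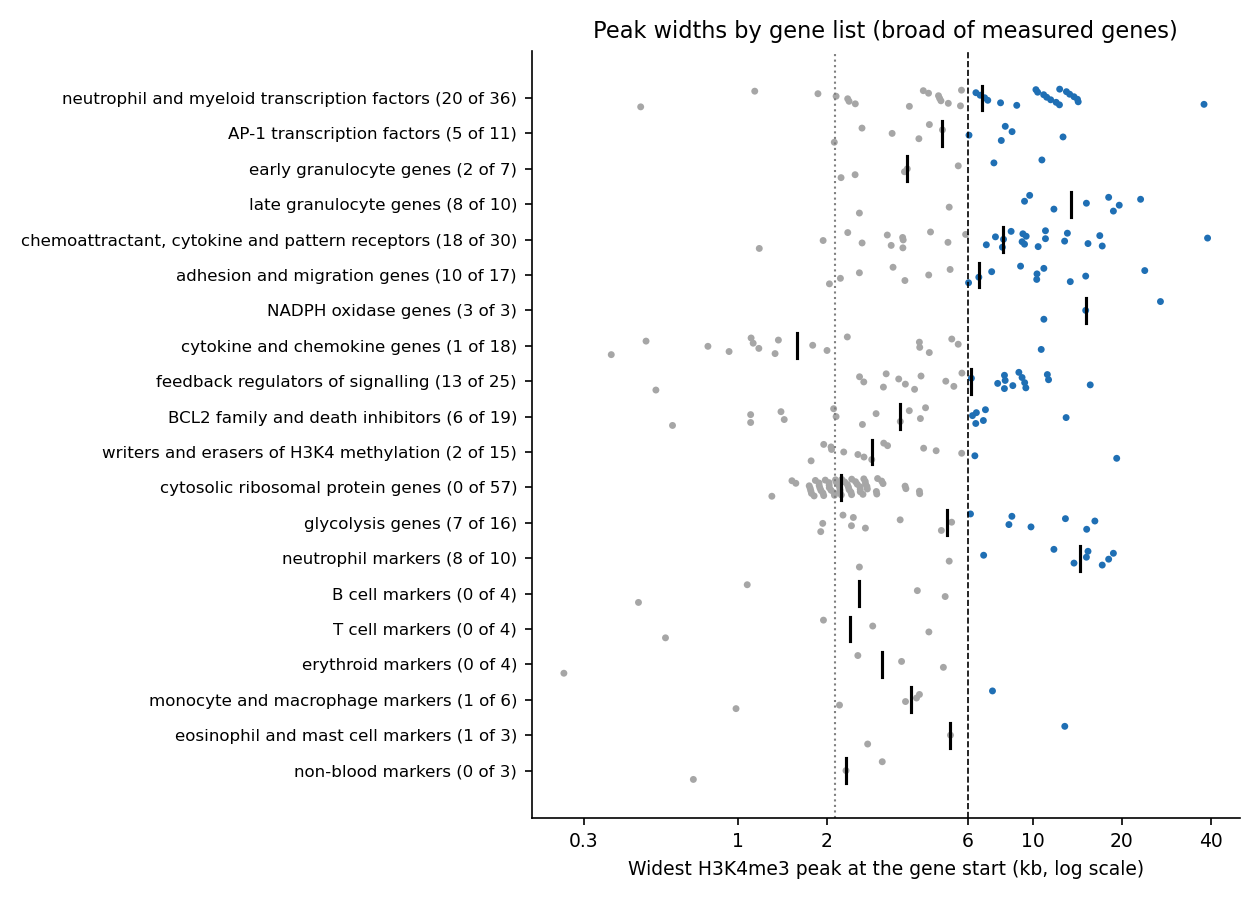
Each point is a gene with an H3K4me3 peak at its start, placed by the width of its widest such peak in kb on a log scale. Blue points are broad, black bars are list medians, the dashed line is the limit of 6 kb and the dotted line the median over all genes, 2134 bp. The medians of late granulocyte genes and of neutrophil markers lie at 13476.5 and 14476 bp, and all 57 ribosomal protein genes lie left of the limit.

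Between the genotypes few domains differed in H3K4me3 by 1.5-fold. The change of a domain was taken as log2 of (KO + 1) over (WT + 1) in normalized reads, less the median of that value over autosomal peaks of the mark with at least median signal. The median change over the domains was -0.01, with quartiles at -0.12 and 0.12. It was -0.07 for narrower start peaks and -0.20 for the strongest of them. In the KO, 13 domains lay at or past 1.5-fold above the centre and 6 as far below it. Over all start peaks 8.02% were that much higher and 7.63% lower, and over all H3K4me3 peaks 13.6% and 32.4%, many of them with few reads. Among the 1142 strongest narrower start peaks 0 were higher and 19 lower (1.66%), so few such calls were shared by peaks with many reads. At 2-fold 0 domains were higher and 2 lower, against 3.75% and 4.66% of start peaks. The position of 0 depends on the reference. Centred instead on the median of all peaks, which lies 0.14 lower, the median of the domains became 0.13, with 38 domains at least 1.5-fold higher and 4 lower. The interval of counting error excluded 0 for 386 domains. That count depends on the same reference and has no like count for narrower peaks beside it. It is therefore not a number of domains that differ.

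Domains with little signal per kb lay higher in the KO than dense ones. In 4 groups of near-equal size by signal per kb the median change ran 0.13, 0.01, -0.05 and -0.07 from the lowest to the highest. The 109 domains without H3K27ac had a median of 0.16, with 87 above 0, and those with it -0.03. Narrower start peaks at the same signal per kb had 0.14. When each domain was centred on peaks of similar signal per kb, the median of the 109 was -0.06, with 46 above 0, and the 4 groups had 0.02, 0.00, -0.02 and 0.05. Depth differed 3.85-fold between the libraries, and its part in these values was not tested. Widths came from the consensus peaks of WT and KO together, so the choice of domains was not independent of the KO library. At Hoxa7 the change was 0.45 (0.31 to 0.59), at Uncx 0.28 (0.05 to 0.52), and at Ebf3 -0.06 (-0.28 to 0.17). Centred on peaks of similar signal per kb, Hoxa7 stayed above 0 at 0.41, Uncx turned to -0.20 and Ebf3 was at -0.11.

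**Figure D4:**
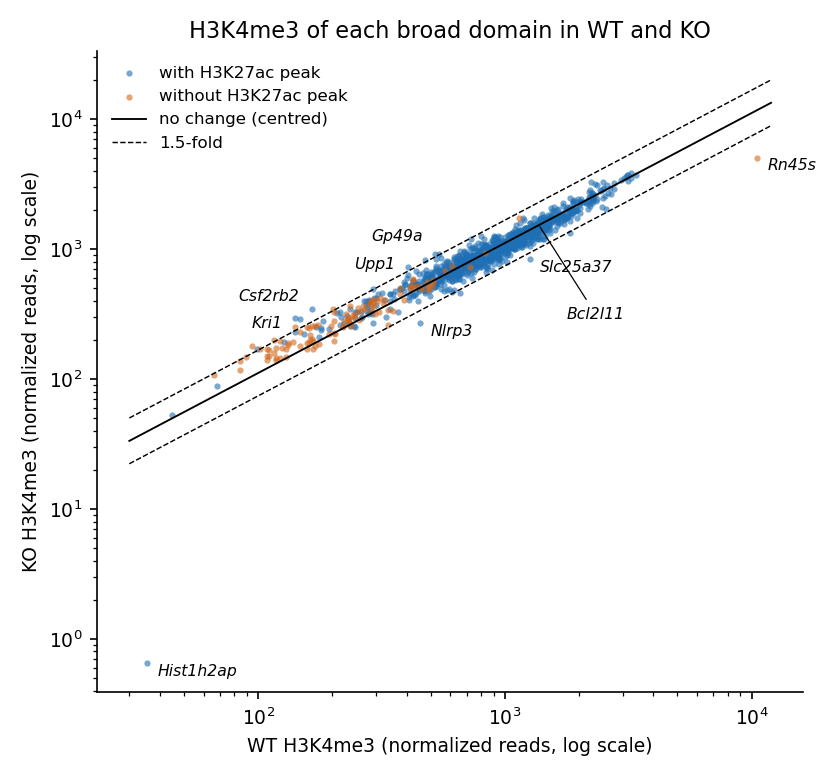
H3K4me3 of each domain in the WT (horizontal) and in the KO (vertical), in normalized reads on log scales. The solid line is no change after centring and the dashed lines are 1.5-fold, and colours mark domains with and without H3K27ac. Most points lie between the dashed lines, with Kri1, Csf2rb2, Upp1 and Gp49a above them and Nlrp3, Slc25a37 and Rn45s below.

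Among the 1125 domains with at least 50 WT reads, 10 were at least 1.5-fold higher in the KO and 5 lower. The highest was Kri1, a ribosome assembly factor, with 141 normalized reads in the WT and 295 in the KO, a change of 0.90 (0.52 to 1.32). Csf2rb2, a receptor subunit for interleukin 3, had 165 and 343 (0.90, 0.54 to 1.28), and Fcnb, the granule lectin ficolin B, had 148 and 288 (0.80, 0.42 to 1.21). These 3 rest on 60 to 70 WT reads each. Upp1, uridine phosphorylase, Lef1, a transcription factor, Gp49a, an immunoglobulin-like receptor, Lipg, endothelial lipase, and the non-coding Pax6os1 had changes between 0.64 and 0.70. Of these, Lef1 had as little WT signal as Kri1, 141 normalized reads (interval 0.27 to 1.09), and Pax6os1 rested on 85 WT reads. The remaining pair were Prtn3 (0.61) and, named after its value was seen, Abca13 (0.61). Centred on peaks of similar signal per kb, 4 of the 10 fell under 1.5-fold, namely Pax6os1 (0.29), Lef1 (0.48), Prtn3 (0.57) and Abca13 (0.57). Reads at Csf2rb2 and Gp49a can be shared with close paralogues, and the sources used here do not say how such reads were placed.

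On the lower side, the domain of Nlrp3, the inflammasome sensor, had 454 normalized reads in the WT and 269 in the KO, a change of -0.91 (-1.16 to -0.66). Slc25a37, the mitochondrial iron importer, had 1264 and 835 (-0.75, -0.90 to -0.60). Zbtb39 (-0.68), the non-coding Gm7854 (-0.62) and the repeated Rn45s (-1.22) made up the other 3. Gm7854 lay under 1.5-fold when centred per kb or on all peaks (-0.48 each), and Zbtb39 when centred on all peaks (-0.54) or on peaks of similar signal (-0.53). The domains of Eepd1 and Foxe1 and the narrower of the pair at Mbnl1 had changes between -0.54 and -0.53, under 1.5-fold. A domain of 7224 bp at Hist1h2ap, a histone gene with many near-identical copies, held 15 reads in the WT and 1 in the KO, and its change of -4.61 has an interval of -11.32 to -3.22. Among monocyte markers, the H3K4me3 peak at the start of Csf1r had 297 normalized reads in the WT and 188 in the KO (-0.81, -1.12 to -0.50). Over the 6 measured genes of that list the signal ran from 51.8 to 727 in the WT and from 40.9 to 707 in the KO, and their part in the lower domains was not tested.

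At some of these domains the other marks lay on the same side of 0, and at others only H3K4me3 differed. Of the 10 higher domains 8 had H3K27ac peaks, 6 of them above 0, against 357 of 1029 domains in all. H3K36me3 peaks were found at 8 of the 10, 7 above 0, against 760 of 1041 in all, so that share was close to that of every domain. Of the 5 lower domains 4 had H3K27ac peaks, all below 0, against 672 of 1029 in all, and H3K36me3 was below 0 in 3 of 5, against 281 of 1041. At Slc25a37 all 4 marks were lower, with H3K27ac at -0.46 (-0.60 to -0.32), H3K4me1 at -0.71 (-0.83 to -0.59) and H3K36me3 at -0.83 (-1.08 to -0.59). At Nlrp3, H3K27ac was at -0.60 (-0.78 to -0.43) and H3K36me3 at -1.19 (-1.46 to -0.93), while the interval of H3K4me1, -0.41 to 0.18, held 0. Csf2rb2 was higher in all 4, with H3K27ac at 0.39 (0.03 to 0.77), H3K4me1 at 0.44 (0.15 to 0.74) and H3K36me3 at 0.42 (0.29 to 0.55). Gp49a and Fcnb differed in H3K4me3 without a detectable difference in the other 3 marks at this depth. Over domains with enough reads, the change of H3K4me3 had a Pearson correlation of 0.25 with that of H3K27ac (Spearman 0.20, 947 domains), 0.13 with H3K4me1 (Spearman 0.05, 996) and 0.30 with H3K36me3 (Spearman 0.21, 928). These describe domains that share the same libraries.

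**Figure D5:**
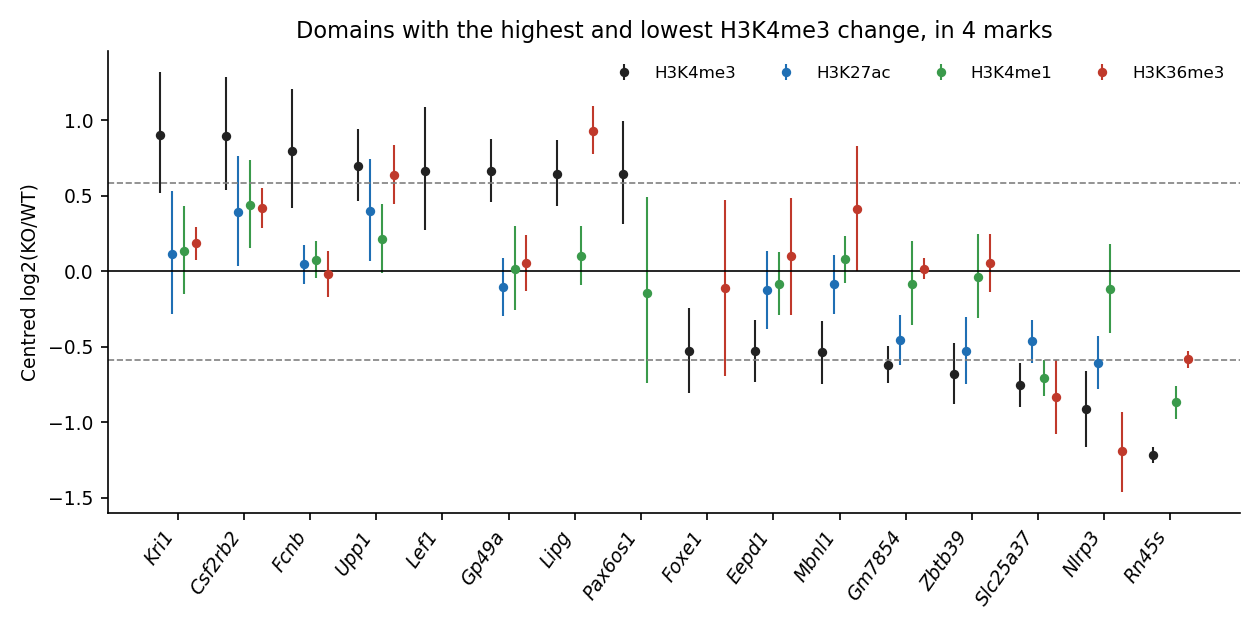
Centred log2(KO/WT) of the 4 marks at the 8 highest and 8 lowest domains by H3K4me3 change among those with at least 50 WT reads. Points are values, bars are exact 95% intervals of counting error, and marks with under 20 WT reads are left out. The dashed lines are 1.5-fold, and at Slc25a37 all 4 marks lie below 0 with their whole bars.

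In the other marks the median changes over the domains were also small. Each such value sums whole peaks that overlap the domain, and these can reach beyond it, above all for H3K36me3. For H3K27ac, summed over the peaks overlapping each of 1033 domains, the median was -0.07, with 10 domains past 1.5-fold on the higher side and 29 on the lower. Among all start peaks with H3K27ac 4.12% were higher and 9.98% lower, and among the strongest narrower ones 0.351% and 3.33%, close to the 0.968% and 2.81% of the domains. With at least 50 WT reads, 1 of 947 domains was higher and 6 were lower. For H3K4me1 the median was -0.03 over 1126 domains, with 8 higher and 9 lower against 3.95% and 6.41% of start peaks and 0.438% and 0.701% of the strongest narrower ones, and with 50 reads 0 and 2 of 998. For H3K36me3 it was 0.06 over 1050 domains, with 37 higher and 14 lower against 6.58% and 3.55% of start peaks and 1.53% and 1.38% of the strongest narrower ones, and with 50 reads 6 and 5 of 931. The higher H3K36me3 domains were 17 of the 67 without H3K27ac (25.4%) and 20 of the 983 with it (2.03%). Those 17 had only 5 to 31 WT reads of H3K36me3 each, so none was left among domains with at least 50.

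The 1 domain past 1.5-fold on the higher side in H3K27ac with at least 50 WT reads was that of Bcl2l11, which encodes Bim, a protein that promotes apoptosis, at chr2:127948140-127954568 (mm9) and 6429 bp wide. Its H3K27ac went from 275 normalized reads in the WT to 499 in the KO, a change of 0.79 (0.49 to 1.11), and its overlapping H3K36me3 from 298 to 505, also 0.79 (0.58 to 1.01). Its H3K4me3 had 1358 and 1579, a change of 0.06 (-0.07 to 0.20), so that acetylation and H3K36me3 were higher in the KO while no H3K4me3 difference was detectable. Of the other domains, H3K27ac was next highest at Cask (0.57, 0.20 to 0.96), Hmha1 (0.48) and Ppp1cc (0.47). It was lowest at Bahd1, where 184 normalized reads in the WT stood against 88.7 in the KO (-1.11, -1.55 to -0.68), and at Atf3, a stress-induced AP-1 factor, with 369 and 213 (-0.85, -1.15 to -0.56). The domains of H2-Q10 (-0.65) and Ptpn21 (-0.69) followed with under 60 WT reads each. H3K36me3 was also high at Lipg (0.93), Socs3, an inhibitor of cytokine signalling (0.68), and Upp1 (0.64), and low at Gabbr1 (-0.87) and Agpat9 (-0.60). For H3K4me1 the highest 4, Csf2rb2 (0.44), Trp53inp2, Fbxo10 and Rnf111 (0.34 each), were under 1.5-fold.

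By gene list most changes were small and few domains passed 1.5-fold. The 20 transcription factor domains had a median H3K4me3 change of 0.01 and none passed in any mark. The 8 domains of late granulocyte genes had 0.13, with 7 above 0 and 0 past 1.5-fold, beside 541 of 1142 above 0 over all domains. Without Padi4 and Ltb4r1 the median was 0.10, with 5 of 6 above 0. Cd177 was the highest of those named, with 2224 normalized reads in the WT and 3274 in the KO (0.40, 0.30 to 0.51), and Chil3 had 1184 and 1720 (0.38, 0.25 to 0.52), while Mmp9 had 3391 and 3705 (-0.03, -0.11 to 0.06). The early pair had 0.51 (0.34 to 0.68) at Serpinb1a and 0.61 (0.34 to 0.90) at Prtn3. Over all domains H3K27ac had a median of -0.07, with 358 of 1033 above 0, and the late granulocyte domains lay near it at -0.10, with 1 of 8 above 0. The 13 feedback regulators had a median H3K27ac change of -0.22, with 3 above 0, and Zfp36 had 3661 and 2910 normalized reads (-0.40, -0.49 to -0.31). The 5 AP-1 domains had a median H3K27ac change of -0.34, with none above 0 and 1, Atf3, past 1.5-fold. In H3K4me3 4 of the 5 lay below 0, Fosl2 at -0.20 (-0.30 to -0.09). H3K36me3 went the other way at the 4 AP-1 domains with such a peak, with a median of 0.38 and 3 above 0. Of these 4, 2 were past 1.5-fold higher, beside 37 of 1050 and a median of 0.06 over all domains. For the 18 receptor domains the H3K4me3 median was 0.05, and Csf2rb2 was the only one past 1.5-fold.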

How the data were processed

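ChIP-seq signal was deposited by the authors as 1 peak table per mark, with a normalized read value for WT and KO at each peak. Peaks lie on mm9, and MACS2 2.1.0, HOMER, R 3.1.1 and DiffBind are named beside Bowtie2 2.2.3, Trimmomatic 0.32 and bcl2fastq 2.16.0, all per the submitters' processing notes. Their order, their settings and the use of input are not given in the sources used here. A further 2 samples, input DNA with normal rabbit IgG named as antibody, were not used.

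In every column the values were whole multiples of 1 read within 0.01 read, which gave the reads in peaks. No value was under 1 read, so 0 and 1 cannot be told apart. Changes were log2 values computed from the deposited signal with a pseudocount of 1. With 1 library per mark and genotype no test was made. Gene names turned into dates by a spreadsheet were restored from the gene IDs. Gene starts on mm9 were recovered from at least 2 peaks each. Intervals came from scipy 1.17.1, tables from pandas 2.3.3 and numpy 2.4.6 and plots from matplotlib 3.10.9, under Python 3.11.15, and the changes, intervals, overlaps and start positions were checked on simulated data.

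The domains and gene lists were chosen with earlier results of these data known. Named were the 12 widest and 8 densest domains, the 8 highest and 8 lowest in H3K4me3 change and 4 each way in the other marks with at least 50 WT reads, 3 on each side of the width limit, domains near Morrbid, and the widest 4 and any member past 1.5-fold of each list. Other names were chosen after their values were seen, as were the split by H3K27ac and the grouping by gene description. Some results are not reported here.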

Additional observations from a re-analysis of the deposited data

How the results depend on the processing

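The median changes of the 4 marks moved by less than the counting error of a typical domain under every alternative run. That error is a wide limit for a median over many domains, so staying within it does not show that the medians are stable. Those of H3K4me3, H3K27ac and H3K4me1 took both signs. The medians ran from -0.02 to 0.13 for H3K4me3, -0.07 to 0.01 for H3K27ac, -0.04 to 0.03 for H3K4me1 and 0.02 to 0.06 for H3K36me3. The 0.13 for H3K4me3 lay above the upper quartile of the domains in the main run, 0.12. The counts moved more, and the cause was not tested beyond the number of domains that each limit leaves. Of 1142 domains, 603 remained at 8000 bp and 570 at a distance of 2000 bp.
With 5000 bp, higher and lower domains numbered 23 and 12 in H3K4me3, and 20 and 18 in H3K4me1, while 54 were lower in H3K27ac and 25 in H3K36me3. With 8000 bp they numbered 5 and 1 in H3K4me3, 5 and 13 in H3K27ac, 3 and 4 in H3K4me1 and 17 and 4 in H3K36me3. Within 2000 bp 5 were higher in H3K4me3 and 5 in H3K27ac, and 3 were lower in H3K4me1. With at least 50 WT reads they numbered 1 and 6 in H3K27ac, 0 and 2 in H3K4me1 and 6 and 5 in H3K36me3. Centring on all peaks gave 38 higher in H3K4me3. Centring on peaks of similar signal gave 5 higher in H3K27ac, 4 in H3K4me1 and 24 in H3K36me3, and a pseudocount of 5 gave 4 in H3K4me1. Centring per kb, added after seeing the data, gave 7 higher in H3K4me3, and 5 higher and 16 lower in H3K4me1. It reversed H3K4me1 at Olig2 from 0.59 to -0.15 and at Lhx3 from 0.72 to -0.045.
Overlap with H3K27ac, H3K4me1 and H3K36me3 was 82.8%, 74.3% and 51.8% when at least 50% of the other mark's peak had to lie inside the domain, 88.2%, 95% and 81.6% with only the stronger peaks, and 93.2%, 99.3% and 96.0% at 8000 bp, with 87.4% for H3K36me3 at 5000 bp.
Within 2000 bp the listed genes with a domain fell to 7 transcription factors, 1 early and 4 late granulocyte genes, 4 receptors, 4 adhesion genes, 0 oxidase genes, 5 feedback regulators, 1 BCL2 family gene, 1 glycolysis gene and 5 neutrophil markers. At 8000 bp they were 3 AP-1 factors, 1 early granulocyte gene, 1 BCL2 family gene, 1 writer or eraser and 0 monocyte markers. At 5000 bp they were 3 cytokine genes, 1 B cell marker and 2 eosinophil and mast cell markers, and counting any start inside a domain gave 1 T cell marker. Without genes that are not granule genes, left out after seeing the data, 1 early gene remained.
No paired analysis was possible because each mark and genotype has 1 library. The smaller WT libraries limit what could be detected, and neither animals nor libraries are replicated.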

Other observations

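Of the domains, 33 had a microRNA gene as their nearest start, in many cases one inside or beside a protein-coding gene. The domain of Mir142, a microRNA of blood cells, was 13027 bp wide with 2189 normalized reads in the WT and 2495 in the KO, a change of 0.03 (-0.07 to 0.14), and also held the start of Bzrap1. That of Mir21a was 11232 bp wide with 817 and 1103 (0.28, 0.11 to 0.45). The domain of Mir147, at 6594 bp, had 405 and 634 (0.49, 0.26 to 0.74), the highest change among the 33 and under 1.5-fold. Mir9-3, a microRNA of the nervous system, lacked H3K27ac and had 24.6 reads per kb. These domains were chosen after their values were seen.

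The 75 domains at least 15000 bp wide had an H3K27ac peak in 72 cases and H3K4me1 and H3K36me3 peaks in all 75, and 25 (33.3%) held 2 or more gene starts. Their median H3K4me3 change was 0.06, with 47 above 0. Of the 14 domains that held at least 3 starts, 2 held homeobox genes, Dlx1, Dlx1as and Dlx2 in one and Lhx1, Lhx1os and Aatf in the other.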
